A study of Sus scrofa with 18 samples.

Results

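The 5 genes described here, GFAP, VIM, GLUL, CD9 and APOE, encode glial filaments or are used as markers of Mueller glia. They were fixed as a list of names, and every probe set with exactly 1 gene symbol on that list was taken, which gave 11 of the 24123 probe sets on the array and 5 of the 5710 genes tested. GFAP had 4 probe sets, GLUL 3, APOE 2, and VIM and CD9 1 each. All 11 passed the filter on dim probe sets and were among the 16799 tested probe sets. Where a gene had several, they are numbered by mean level with 1 the brightest, as in GFAP-1, and the plots give the array's own identifier beside each number.

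Retinas of 18 male piglets, Landrace crossed with Large White, were measured at postnatal day 38 on Affymetrix pig arrays, 1 array per piglet. From the age of 3 days, 9 piglets received milk replacer with sialyllactose, a milk sugar that joins lactose to sialic acid, and 9 received the milk replacer alone (control). According to its title the study concerned development of the retina and of sight. Values are RMA levels on a log2 scale, so a difference of 1 is a doubling. RMA values of different probe sets cannot be set against each other, because probes bind with different strength. Levels are compared below only within a probe set, and bright and dim say only how a probe set ranked on the arrays. Array pairs correlated at 0.981 to 0.992 over the tested probe sets, and none held identical values. Precision is limited by having 9 arrays a diet.

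Mueller glia are the radial glial cells of the vertebrate retina. They span its whole thickness, clear glutamate and potassium from around neurons, recycle retinoids for cones and supply lipids and metabolites. Their cytoskeleton is built on vimentin, the product of VIM. GFAP, a related filament protein, is normally made mainly by the astrocytes of the inner retina, and in many mammals Mueller glia raise it after injury or stress. GLUL encodes glutamine synthetase, which turns glutamate taken up from synapses into glutamine. CD9 is a tetraspanin, a small membrane protein that organises adhesion complexes and is also found on many other cells. APOE is the lipid-carrying apolipoprotein that glia secrete. In whole retina, fewer cells of a type and less RNA per cell cannot be told apart, and this holds for every value below.

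Other genes of the same cells were read in the same retinas, as a description, since a level says little across probe sets. RLBP1, a retinoid carrier of Mueller glia and pigment epithelium, was measured at 8.81 ± 0.15 with sialyllactose and 8.90 ± 0.22 in control (log2, mean ± SD, n = 9 each), and CLU, a secreted chaperone of the same glia, at 8.49 ± 0.13 and 8.63 ± 0.21. S100B, a calcium-binding protein of astrocytes and Mueller glia, was at 7.84 ± 0.41 and 8.02 ± 0.35 in the same order of diets. ALDH1L1, an astrocyte enzyme, was near the lower limit of the tested probe sets at 1.72 ± 0.10 and 1.71 ± 0.16, where the lowest mean among tested probe sets was 1.476. Of the Mueller list the transcription factor SOX9 was also dim at 1.97 ± 0.22 and 2.02 ± 0.27, as were TIMP3, a protease inhibitor, at 2.33 ± 0.22 and 2.26 ± 0.13, and DIO2, a deiodinase, at 2.51 ± 0.11 and 2.37 ± 0.30. SAG, rod arrestin, marked the tissue as retina at 10.56 ± 0.17 with sialyllactose and 10.66 ± 0.10 in control.

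The first comparison asked whether the glial genes differed between the diets. In their brightest probe sets all 5 genes had lower means with sialyllactose, by 0.11 to 0.41 on the log2 scale, and none passed the test. Over all 5710 tested genes, 56.7% had a lower mean with sialyllactose. In limma, after Benjamini-Hochberg correction for all tested probe sets, 0 of 11 glial probe sets and 0 of 16799 tested probe sets (0%) had an adjusted p under 0.05. At an unadjusted p under 0.05 there were 3 of the 11, against 6.3% of all tested probe sets. Of these 3, GFAP-1 and VIM (2 of 11) were lower with sialyllactose, against 3.36% of all, and GFAP-2 (1 of 11) was higher, against 2.94%.

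GFAP in its brightest probe set, GFAP-1, ran from 5.0 through a median of 5.32 to 5.64 with sialyllactose, against 5.16, 5.70 and 6.23 in control (log2). All 9 sialyllactose retinas lay below the control median, which 2.33% of all tested probe sets showed. The ranges still overlapped: 5 sialyllactose retinas lay within the control range and 4 below it, and 5 control retinas lay above the highest sialyllactose retina. The means were 5.28 ± 0.23 and 5.69 ± 0.38 (SD, n = 9 each), a difference of -0.41 (95% interval -0.69 to -0.13) or 0.753-fold (limma adjusted p = 0.691). The highest control retinas were replicate 1 at 6.23 and replicate 4 at 6.18, and leaving out any 1 array kept the difference between -0.48 and -0.34.

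The other 3 GFAP probe sets were dim and did not repeat that difference. The annotation gives all 4 the same gene, but which part or strand of GFAP each detects, and so whether all 4 measure its mRNA, was not tested, and what follows on their disagreement is limited by this. GFAP-2 ran the other way, at 2.42 ± 0.15 with sialyllactose and 2.17 ± 0.27 in control, a difference of 0.25 (95% interval 0.05 to 0.45, limma adjusted p = 0.753). In it all 9 sialyllactose retinas lay above the control median, which 1.79% of all tested probe sets showed. GFAP-3 was measured at 2.18 ± 0.18 and 2.06 ± 0.15, with a difference of 0.12 (-0.03 to 0.28). GFAP-4 was measured at 1.61 ± 0.22 and 1.63 ± 0.33, with a difference of -0.02 (-0.27 to 0.23) whose sign turned in 6 of the 18 fits without 1 array. The mean over the 4 probe sets, taken as the gene's value, differed by -0.01.

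The disagreement among the GFAP probe sets was tested on the same arrays by taking the brightest probe set minus another and comparing that quantity between diets. It was lower with sialyllactose by 0.66 ± 0.18 (SE) against GFAP-2, where the two-sided exact permutation p was 0.00214 and 0.016 after adjustment over the 10 within-gene pairs tested. Against GFAP-3 the difference was -0.53 ± 0.15 (exact permutation p = 0.00321, adjusted p = 0.016) and against GFAP-4 -0.39 ± 0.14 (exact permutation p = 0.00843, adjusted p = 0.0281). Without any 1 array the unadjusted exact p for these 3 stayed at or below 0.0186. The test was added with the GFAP difference already known, so it is no independent support for it. All 3 contrasts share GFAP-1 and subtract a dim probe set, so they are not separate results. In APOE the same contrast, APOE-1 minus APOE-2, was -0.48 ± 0.22 (exact permutation p = 0.0417, adjusted p = 0.104), and its unadjusted exact p was 0.081 without control replicate 2.

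**Figure D1:**
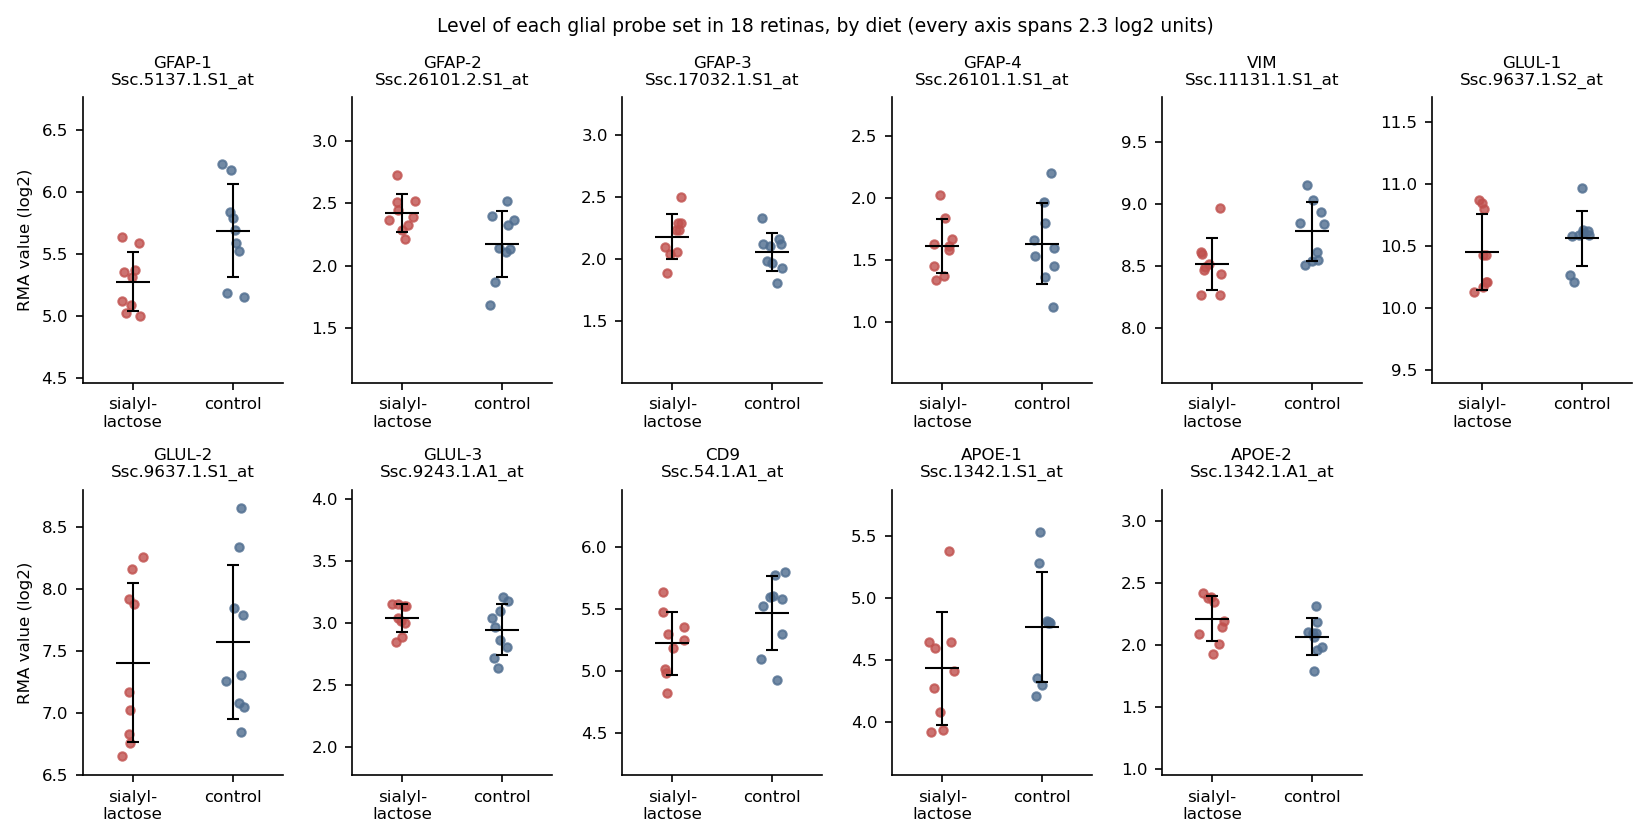
RMA level (log2) of the 11 probe sets in 18 retinas, sialyllactose left and control right, 1 point per retina with the mean and SD as bars. GFAP-1 is lower with sialyllactose in mean (5.28 and 5.69), GFAP-2 is higher (2.42 and 2.17), and the diets overlap in every panel.

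VIM was measured by 1 probe set. Its level ran from 8.27 through a median of 8.49 to 8.97 with sialyllactose, against 8.51, 8.84 and 9.15 in control. Of the 9 sialyllactose retinas, 8 lay below the control median, as in 9.11% of all tested probe sets (at least 8 of 9), and 5 lay below the lowest control retina. The exception was sialyllactose replicate 1, which at 8.97 came just below control replicates 1 and 7. The means were 8.51 ± 0.21 and 8.78 ± 0.24, a difference of -0.27 (95% interval -0.47 to -0.06) or 0.832-fold (limma adjusted p = 0.753), and it became -0.32 when sialyllactose replicate 1 was left out and -0.22 when control replicate 1 was.

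CD9, likewise on 1 probe set, ran from 4.83 through 5.25 to 5.64 with sialyllactose, against 4.93, 5.58 and 5.80 in control. Here too 8 of 9 sialyllactose retinas were below the control median, but 8 of 9 also lay within the control range. The means of 5.23 ± 0.25 and 5.47 ± 0.30 differed by -0.24 (95% interval -0.49 to 0.01, limma adjusted p = 0.779). The lowest retinas came from both diets, sialyllactose replicate 4 at 4.83 and control replicate 2 at 4.93.

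GLUL had a bright pair of probe sets and a dim one. In the brightest, GLUL-1, levels ran from 10.13 through 10.43 to 10.87 with sialyllactose, against 10.21, 10.59 and 10.97 in control. The diets overlapped widely, with 6 of 9 sialyllactose retinas below the control median. The means of 10.46 ± 0.31 and 10.56 ± 0.22 differed by -0.11 (95% interval -0.35 to 0.13, limma adjusted p = 0.908). That difference was -0.06 without control replicate 2 and -0.16 without sialyllactose replicate 2, the brightest GLUL retinas of each diet.

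The second GLUL probe set, GLUL-2, spread far more between piglets of the same diet. It ran from 6.65 through 7.17 to 8.26 with sialyllactose, against 6.85, 7.31 and 8.65 in control, a 3.99-fold span over the 18 retinas. Both diets held high and low retinas, and the means of 7.40 ± 0.64 and 7.58 ± 0.62 differed by -0.17 (95% interval -0.72 to 0.38). Without control replicate 7 the difference was -0.04 and without sialyllactose replicate 3 it was -0.28. The dim GLUL probe set, GLUL-3, was at 3.04 ± 0.12 with sialyllactose and 2.95 ± 0.20 in control, with a difference of 0.09 (-0.06 to 0.25, or 0.06 without control replicate 8), and neither probe set passed (limma adjusted p = 0.943 and 0.879).

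APOE in its brighter probe set, APOE-1, ran from 3.92 through 4.41 to 5.38 with sialyllactose, against 4.21, 4.8 and 5.53 in control. Of the sialyllactose retinas 8 of 9 lay below the control median, and replicate 2 alone, at 5.38, lay above it. The means were 4.43 ± 0.46 and 4.77 ± 0.44, a difference of -0.34 (95% interval -0.73 to 0.06, limma adjusted p = 0.799). Leaving out sialyllactose replicate 2 gave -0.45, and leaving out control replicate 2 gave -0.24. The dimmer probe set, APOE-2, was at 2.21 ± 0.18 with sialyllactose and 2.07 ± 0.15 in control, with a difference of 0.15 (-0.01 to 0.30, limma adjusted p = 0.783).

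**Figure D2:**
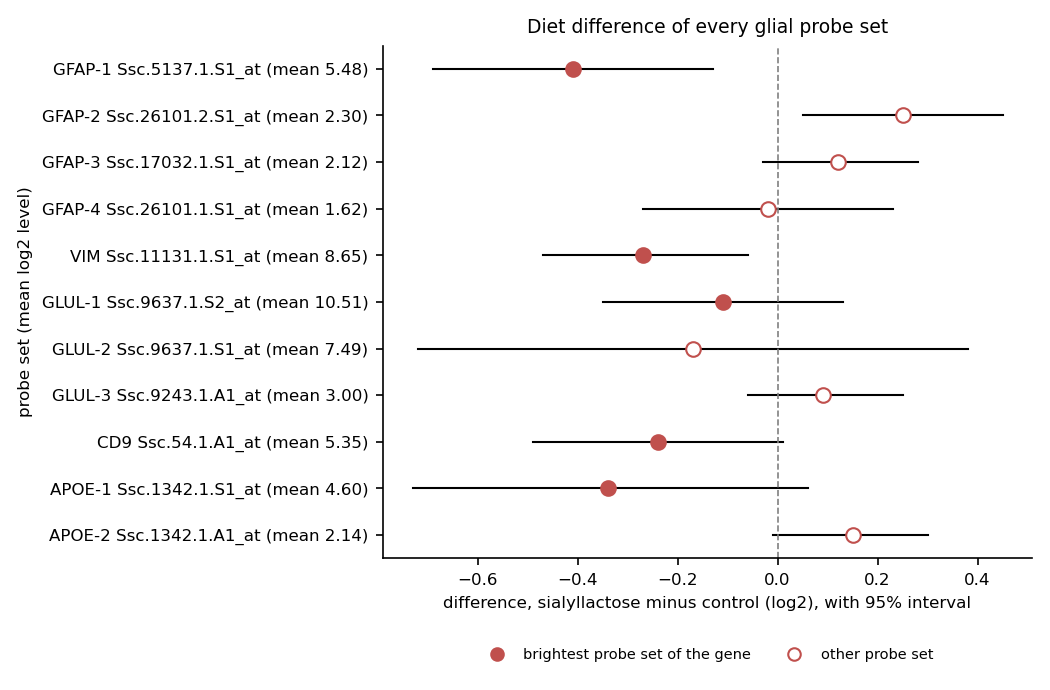
Difference of mean level (log2, sialyllactose minus control, horizontal axis) of each of the 11 probe sets with its 95% interval. Filled points are the brightest probe set of a gene and all lie below 0, from -0.41 in GFAP to -0.11 in GLUL, while 4 of the 6 open points lie above 0.

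All 4 positive differences were in dim probe sets, and each of GFAP, GLUL and APOE had at least 1. With the tested probe sets split by level into 3 equal bins, 0 of the 5 glial probe sets in the brightest bin were higher with sialyllactose, 1 of the 2 in the middle bin was and 3 of the 4 in the dimmest bin were. The same tilt ran through the whole array, where 39.4% of tested probe sets in the brightest bin were higher with sialyllactose, 44% in the middle bin and 56.4% in the dimmest. The median differences in these bins were small, -0.015, -0.012 and 0.015. The mean of the 7200 untested dim probe sets was 0.989 ± 0.021 with sialyllactose and 0.972 ± 0.031 in control, a difference of 0.017 (two-sided exact permutation p = 0.196, n = 9 each). With that mean as a covariate, added after the data were seen, GFAP in its brightest probe set differed by -0.43, VIM by -0.22, GLUL by -0.18, CD9 by -0.17 and APOE by -0.40, again with no call.

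The next question was how well the probe sets of a gene agreed over retinas. Of 10 within-gene pairs, 1 passed, GLUL-1 with GLUL-2, whose identifiers differ in 1 digit. They had Pearson r = 0.69 (permutation p = 0.00194, adjusted p = 0.0194 over 10 pairs) and Spearman rho = 0.73 (permutation p = 0.00088, adjusted p = 0.0088) over 18 retinas. With the diet means removed r was 0.68, and it was 0.80 within sialyllactose (exact permutation p = 0.0187, n = 9) and 0.53 within control (exact permutation p = 0.142, n = 9). Without the 2 retinas farthest from the median, sialyllactose replicates 6 and 8, r was 0.64 (permutation p = 0.00998, adjusted p = 0.0998). The adjusted p was also above 0.05 without sialyllactose replicate 4 (0.0519) or 8 (0.0637).

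No relation of GLUL-3 to the bright ones was detectable, with r = -0.02 and rho = -0.07 against GLUL-1 (permutation p = 0.949 and 0.792) and r = -0.17 and rho = -0.24 against GLUL-2 (permutation p = 0.511 and 0.344). The 2 APOE probe sets had r = -0.05 and rho = -0.14 (permutation p = 0.827 and 0.569). Among GFAP probe sets the brightest came closest to GFAP-4, with r = 0.46 and rho = 0.40 (permutation p = 0.054 and 0.102, adjusted p = 0.226 and 0.508). With diet means removed r was 0.54 (permutation p = 0.0222, adjusted p = 0.111), and it was 0.67 within sialyllactose (exact permutation p = 0.0474, n = 9) and 0.48 within control (exact permutation p = 0.19, n = 9). Single retinas moved it widely, since r was 0.04 without control replicates 1 and 4 and 0.67 (adjusted p = 0.0171) without control replicate 2. Against the other GFAP probe sets the brightest had r = -0.32 and -0.02. The retina-to-retina patterns of GFAP and APOE given below are those of GFAP-1 and APOE-1.

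How far piglets of the same diet differed was compared with other probe sets of similar level (within 0.5 log2 units of the mean). The within-diet SD was 0.31 in the brightest GFAP probe set, against a median of 0.13 in 2488 such probe sets, which placed it at percentile 97.1. VIM with an SD of 0.22 stood at percentile 94.9 of 216, CD9 with 0.28 at percentile 95.8 of 2644, and the brighter APOE probe set with 0.45 at percentile 98.6 of 3097. GLUL-2, with 0.63 against a median of 0.11, was at percentile 99.3 of 614, and GLUL-1, with 0.27, at percentile 94.7 of only 19. GFAP-2 and GFAP-4 had SDs of 0.22 and 0.28, at percentiles 74.3 and 94.3. The dim probe sets GFAP-3, GLUL-3 and APOE-2 had SDs of 0.17, 0.17 and 0.16 and stood at percentiles 37.8, 38.4 and 35.6. In their brightest probe sets the glial genes varied more between piglets of 1 diet than most probe sets of like level, which is given as a description.

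**Figure D3:**
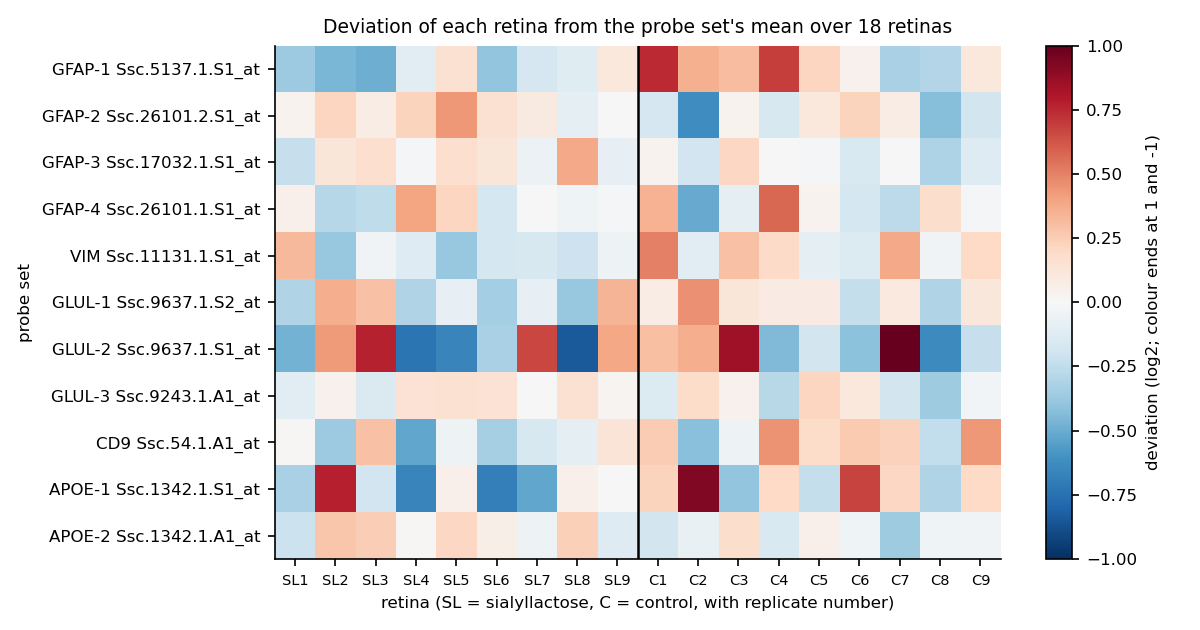
Deviation of each of 18 retinas (columns, sialyllactose left of the line and control right of it) from the mean of each probe set (rows), in log2 units by colour. The brightest GFAP row is high in control replicates 1 and 4, the APOE-1 row in control replicate 2 and sialyllactose replicate 2, and the rows of 1 gene seldom match.

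The third question was whether the 5 genes went up and down together between retinas. Of 10 gene pairs 0 passed the adjusted test, and 2 had an unadjusted permutation p under 0.05. The highest were GLUL with APOE, at r = 0.54 and rho = 0.51 (permutation p = 0.0218 and 0.0326, adjusted p = 0.119 and 0.163), and VIM with CD9, at r = 0.54 and rho = 0.55 (permutation p = 0.0237 and 0.0201, adjusted p = 0.119 and 0.163). With the diet means removed these were 0.51 and 0.41. GLUL with APOE was 0.61 within sialyllactose and 0.36 within control, and it was 0.68 (adjusted p = 0.0228) without control replicate 6 and 0.41 without control replicate 2. VIM with CD9 was 0.40 within sialyllactose and 0.41 within control, and 0.47 without control replicates 1 and 7.

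GFAP had r between 0.26 and 0.37 with each of the other 4 genes over the 18 retinas, the lowest permutation p being 0.132, and between 0.09 and 0.18 once diet means were removed. GFAP with VIM (0.37) was 0.16 without control replicate 1 and 0.02 without control replicates 1 and 4, and GFAP with CD9 (0.37) was 0.23 without control replicate 4 and 0.10 without both. GFAP with GLUL (0.26) was 0.18 without control replicate 2 and 0.41 without sialyllactose replicate 2, and GFAP with APOE (0.28) was 0.19 and 0.47 without the same retinas. VIM and APOE had r = -0.06 over all retinas and -0.33 within diets (permutation p = 0.804 and 0.18). A shared order of retinas was not detectable for the filament gene VIM and the lipid carrier APOE with these 18 retinas. Control replicate 2 had the highest APOE (5.53) and GLUL (10.97) of all retinas and the second lowest CD9 (4.93). Sialyllactose replicate 2 was second in APOE (5.38) and GLUL (10.87) and lowest or equal lowest in VIM (8.27).

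**Figure D4:**
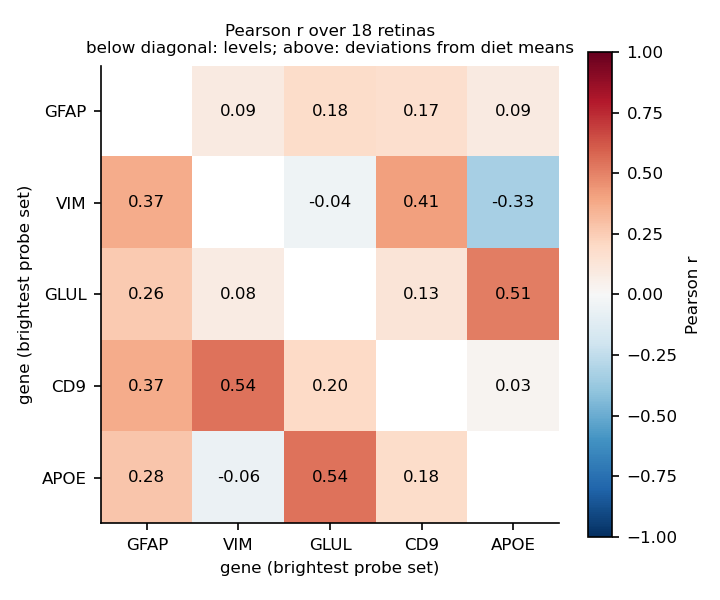
Pearson r between the brightest probe sets of the 5 genes over 18 retinas, from levels (below the diagonal) and from deviations from the diet means (above it). GLUL with APOE (0.54 and 0.51) and VIM with CD9 (0.54 and 0.41) are the highest on both sides of the diagonal, and VIM with APOE is the lowest (-0.06 and -0.33).

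Counted per retina, 3 sialyllactose retinas (replicates 4, 6 and 7) had none of the 5 genes above the median of the 18 retinas, and 2 control retinas (replicates 4 and 9) had all 5 above it. Control replicate 8 had only VIM above it and sialyllactose replicate 9 had 4 genes above it, so the diets overlapped. This count uses the same values as the diet differences and adds no test.

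**Figure D5:**
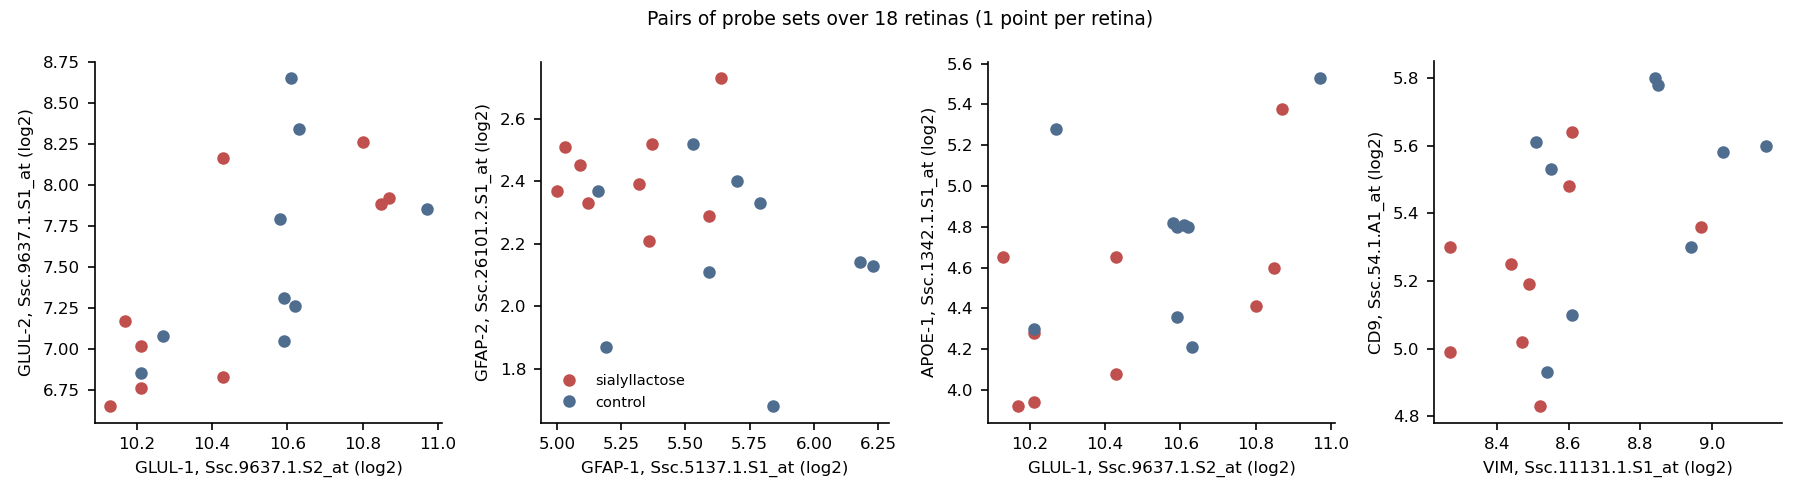
Level (log2) in 1 probe set against another, 1 point per retina, coloured by diet. The bright GLUL probe sets rise together (r = 0.69), GFAP-1 and GFAP-2 do not (r = -0.32), and GLUL with APOE and VIM with CD9 are loosely related (r = 0.54 each).

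The genes whose retina-to-retina pattern was most like each glial gene were looked up among 5709 other genes by Pearson r of deviations from diet means, as a description. All values come from the same 18 arrays, and the 3 highest of so many are given. For GLUL these were BAMBI, a decoy receptor of TGF-beta signalling (0.88), PARVA, an actin-binding adaptor of integrin adhesions (0.86), and SQOR, a mitochondrial sulfide oxidase (0.85). For VIM they were MARCH8, a membrane-bound ubiquitin ligase (0.85), FGFR1, a receptor of fibroblast growth factors (0.79), and SERPING1, the inhibitor of complement C1 (0.78).

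APOE was nearest to INMT, a methyltransferase (0.83), PTN, a secreted growth factor that binds heparin (0.80), and DICER1, the enzyme that cuts microRNA precursors (0.74). CD9 was nearest to ACTB, cytoskeletal actin (0.80), SRSF5, a splicing factor (0.80), and CUX1, a transcription factor (0.78). GFAP was nearest to NCK2, an adaptor of receptor kinases (0.75), FAM110A (0.75) and ATRIP, a partner of the ATR kinase (0.73). NCK2 and FAM110A lay near the lower limit of the tested probe sets, at means of 1.87 and 1.84. Among these 5709 genes, VIM stood at rank 2237 for GFAP (r = 0.09).

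For comparison, 3 other glial genes were looked up outside that rule for all 5 genes. RLBP1 had r = 0.81 with GLUL (rank 7) and 0.55 with APOE (rank 77), but 0.31 with GFAP (rank 645), 0.24 with VIM (rank 1133) and 0.15 with CD9 (rank 1723). CRYAB, a small heat shock protein of glia, had r = 0.66 with VIM (rank 18), 0.42 with GFAP (rank 266), 0.37 with CD9 (rank 590), 0.10 with GLUL (rank 2470) and -0.36 with APOE (rank 5141). SLC1A3, the glutamate transporter gene, had r = 0.51 with GLUL (rank 297), 0.22 with VIM, 0.15 with APOE, -0.01 with CD9 and -0.05 with GFAP.

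Other genes of the same cells were read from lists chosen with earlier results known and without the 5 genes themselves. Among the 16 tested of 30 listed Mueller glia genes the mean with sialyllactose was higher in 5 and lower in 11, with a median difference of -0.08, beside -0.011 and 56.7% lower over all 5710 tested genes. None of the 16 passed the adjusted test, and 1 had an unadjusted p under 0.05, beside 6.3% of all tested probe sets. CRYAB differed most, at 5.95 ± 0.24 with sialyllactose and 6.39 ± 0.50 in control, a difference of -0.44 (95% interval -0.78 to -0.10, limma adjusted p = 0.753). TF, transferrin, came next at 8.96 ± 0.49 and 9.19 ± 0.93, a difference of -0.23 (-0.87 to 0.41), and only 1 of its 2 tested probe sets was lower. PTGDS, a prostaglandin synthase, was the brightest at 9.92 ± 0.13 and 9.99 ± 0.17, and DKK3, a secreted Wnt modulator, had a difference of 0.04.

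Among the 13 tested of 27 listed astrocyte and glial stress genes the mean with sialyllactose was higher in 2 and lower in 11. The median difference was -0.10, beside -0.011 and 56.7% lower over all tested genes, and there was no adjusted call. CRYAB belonged to this list too. CEBPD, a transcription factor of the acute stress response, was at 1.86 ± 0.28 and 2.21 ± 0.53, a difference of -0.35 (95% interval -0.73 to 0.02). MT3, a metallothionein of brain, was at 6.52 ± 0.21 and 6.80 ± 0.16, a difference of -0.28 (-0.45 to -0.10, limma adjusted p = 0.691). S100B, the brightest, differed by -0.18 (-0.52 to 0.15).

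The level of VIM in each retina followed the mean level of the Mueller list, with r = 0.73 and rho = 0.74 (permutation p = 0.00059 and 0.0009, adjusted p = 0.0236 and 0.036 over 40 gene and list pairs). With diet means removed r was 0.67, and it was 0.46 within sialyllactose and 0.80 within control. Without control replicates 1 and 7, farthest in VIM, r was 0.55, and without control replicate 1 alone the adjusted p was 0.123. Within sialyllactose VIM had higher r with 2 lists of other cells given below, pigment epithelium (0.85) and immune (0.73). Within control these were lower, at 0.26 and 0.27. The Mueller and pigment epithelium lists share RLBP1, and the Mueller and astrocyte and stress lists share CRYAB. The latter list also holds SERPING1, among the 3 genes most like VIM. A list's level was the plain mean of its genes' log2 levels, so genes with a wide spread weigh most. In the Mueller list these include TF (SD 0.49 with sialyllactose and 0.93 in control) and CRYAB (0.24 and 0.50). VIM also had r = 0.67 with the astrocyte and stress list (permutation p = 0.00183, adjusted p = 0.0366, rho = 0.56 with permutation p = 0.0175 and adjusted p = 0.142). That call was lost in 9 of the 18 fits without 1 array, at most with an adjusted p of 0.123. GFAP with the astrocyte and stress list had r = 0.58 and rho = 0.58 (permutation p = 0.0124 and 0.0136, adjusted p = 0.105 and 0.142, or 0.0484 for r without control replicate 7). That r did not pass in 17 of the 18 fits without 1 array, where the adjusted permutation p reached 0.246. GLUL with the Mueller list had r = 0.56 and rho = 0.56 (permutation p = 0.0158 and 0.0171, adjusted p = 0.105 and 0.142). It was as strongly and negatively related to the ganglion cell list, at r = -0.56 and rho = -0.56 (permutation p = 0.0153 and 0.0177, adjusted p = 0.105 and 0.142). The other r with the Mueller list were 0.50 for GFAP, 0.42 for CD9 and 0.21 for APOE, and with the astrocyte and stress list 0.19 for CD9, 0.01 for APOE and -0.01 for GLUL, all with an adjusted permutation p of at least 0.207. The sign could differ by diet. GLUL with the astrocyte and stress list had r = -0.84 within sialyllactose and 0.43 within control, and GFAP with the Mueller list -0.24 and 0.55.

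Higher and lower means were about evenly split among the partners of each gene, and no partner passed. Among 6 tested filament genes 3 were higher and 3 lower, with SYNM, synemin, a filament that pairs with vimentin, at 3.25 ± 0.14 with sialyllactose and 3.44 ± 0.24 in control, a difference of -0.19 (95% interval -0.37 to -0.01, limma adjusted p = 0.773). LMNB1, a nuclear lamin, differed by -0.10, and NEFL, the light neurofilament and brightest of the list, by 0.03. Of 10 genes of glutamate and glutamine handling 5 were higher and 5 lower. In that list GOT2, the mitochondrial aspartate transaminase, was at 9.61 ± 0.19 and 9.47 ± 0.28 (difference 0.15), the transporter SLC1A1 differed by -0.07, and SLC1A3, the glutamate transporter of Mueller glia, was at 5.03 ± 0.26 and 5.03 ± 0.18.

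Of 14 tetraspanins and CD9 partners 7 were higher and 7 lower, with EPCAM differing by 0.18, PTGFRN, a membrane partner of CD9, by -0.12, and TSPAN3, the brightest, by 0.04. Only 1 of the 2 tested probe sets of PTGFRN was lower. Of 15 genes of lipoprotein and cholesterol transport 7 were higher and 8 lower. ABCA1, the cholesterol exporter that loads APOE, was at 3.68 ± 0.50 with sialyllactose and 3.43 ± 0.66 in control, a difference of 0.25 (95% interval -0.26 to 0.76). NR1H3, a sterol-sensing receptor, was at 2.06 ± 0.13 and 2.28 ± 0.26, a difference of -0.23 (-0.41 to -0.04, limma adjusted p = 0.753). APOA1, an apolipoprotein and the brightest of that list, differed by -0.01.

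Markers of other cells that a retina sample can hold were read beside the glial genes, and their part in the differences was not tested. Of 12 endothelial and pericyte genes 3 were higher and 9 lower, with a median difference of -0.08, beside 56.7% lower and -0.011 over all tested genes. Their mean level ran from 2.94 to 3.26 with sialyllactose and from 3.04 to 3.39 in control. VWF, a clotting factor of endothelium, differed by -0.32 (1.65 ± 0.32 and 1.97 ± 0.40) and ACTA2, smooth muscle actin, by -0.24. VWF lay near the lower limit of the tested probe sets, and only 1 of its 2 tested probe sets was lower. At an unadjusted p under 0.05 there were 3 of the 12, all lower with sialyllactose. Over all tested probe sets 6.3% had such a p, 3.36% with a lower mean. The 3 were VWF, TEK and PECAM1. TEK, a receptor of angiopoietins, differed by -0.23 (1.62 ± 0.17 and 1.86 ± 0.14, limma adjusted p = 0.691) and, like VWF, lay near the lower limit. PECAM1, an endothelial adhesion molecule, differed by -0.16 (3.56 ± 0.14 and 3.71 ± 0.16, limma adjusted p = 0.773). The brightest genes of the list hardly differed, PDGFRB by -0.01 (5.37 ± 0.15 and 5.39 ± 0.23) and RGS5 by 0.00 (5.16 ± 0.42 and 5.17 ± 0.26). CD9 had r = 0.60 and rho = 0.53 with this list (permutation p = 0.0076 and 0.0272, adjusted p = 0.101 and 0.18, or 0.0289 for r without control replicate 8). This r did not pass in 17 of the 18 fits without 1 array, where the adjusted permutation p reached 0.251. Of 8 pigment epithelium genes 2 were higher and 6 lower, and their mean level ran from 4.06 to 4.52 and from 3.86 to 4.65 in the same order of diets. BEST1, a chloride channel of that epithelium, differed by -0.27 (4.27 ± 0.21 and 4.54 ± 0.26) and OCA2, a melanosome protein, by -0.15. VIM had r = 0.47 and rho = 0.50 with that list (permutation p = 0.0522 and 0.0382, adjusted p = 0.209 and 0.18, or 0.0431 for r without control replicate 3). Its r did not pass in 17 of the 18 fits without 1 array, where the adjusted permutation p reached 0.363.

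Of 6 microglia and immune genes 3 were higher and 3 lower. LAPTM5, a lysosomal protein of blood-derived cells and the brightest, differed by -0.38 (2.43 ± 0.31 with sialyllactose and 2.81 ± 0.43 in control). C1QC, a complement subunit, differed by -0.30 but lay near the lower limit of the tested probe sets (1.53 ± 0.32 and 1.84 ± 0.58). AIF1 differed by -0.001, and the 3 higher genes were CD14 (0.13), P2RY12 (0.08) and FCER1G (0.06), also dim. Their mean level ran from 1.65 to 2.05 with sialyllactose and from 1.65 to 2.48 in control. Of 6 myelin genes 3 were higher and 3 lower, with a mean level from 2.23 to 2.40 and from 2.19 to 2.36. Myelin marks the optic nerve, where astrocytes rich in GFAP lie. CLDN11 and SOX10 of that list differed by 0.21 and 0.12. CLDN11 lay near the lower limit of the tested probe sets, at 1.62 ± 0.36 with sialyllactose and 1.41 ± 0.33 in control. MBP, the brightest of the list, was at 4.46 ± 0.10 and 4.46 ± 0.14, and MOBP, CNP and OLIG2 each differed by -0.02. Of 6 ganglion cell genes 2 were higher and 4 lower, all 5 cone genes were higher, and 1 of 2 rod genes was higher. Median differences were -0.02, 0.07 and 0.09 in these 3 lists, and none of their genes passed the adjusted test. Both red blood cell genes tested differed by less than 0.1, HBB by -0.08 and HBM by 0.07. Besides the Mueller and endothelial lists, an unadjusted p under 0.05 was met by 2 astrocyte and stress genes (CRYAB and MT3) and by 1 gene each of the filament (SYNM), tetraspanin (PTGFRN), lipoprotein (NR1H3), pigment epithelium (BEST1) and immune (LAPTM5) lists, all lower with sialyllactose. Over all tested probe sets 6.3% met it, 3.36% with a lower mean.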

How the data were processed

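The deposited table gives every probe set a log2 value on each array, which the authors made with RMA in Affymetrix Expression Console, going by the submitters' processing notes. Versions, settings and build are not given in the sources used here. RMA gives no detection call and shrinks differences of dim probe sets. Groups and replicate numbers come from the sample titles. The labels name no litter, batch or scan date.

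From these values, 124 control probe sets and then the 7200 dimmest (30% by mean over 18 arrays) were left out. Symbols came from GEO's platform annotation: 10099 probe sets have 1 symbol, 198 several and 13826 none. A gene's brightest tested probe set represents it. The diet difference (sialyllactose minus control) was fitted with limma 3.58.1 (lmFit, eBayes) in R 4.3.3, without covariates, with Benjamini-Hochberg adjustment over 16799 probe sets. Correlations used 100000 permutations, within-diet tests full enumeration, and diet contrasts of single values all 48620 label splits. In a simulation of the diet comparison that changed 200 of 16799 probe sets, limma recovered 32.8% at 1.19-fold, 91% at 1.41-fold and 98.5% at 2-fold. The changed probe sets were drawn at random from all tested ones, each with its own spread. The brightest glial probe sets spread more than most of like level, so these shares do not apply to them. Recovery for the glial genes was not tested.

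Genes named are the 5 genes, the 3 genes most like each, and per list up to 2 with the largest difference and the brightest, with some others named after their values were seen. That rule was not applied to the cone, rod and ganglion cell lists, which were given as counts and median differences. The 5 genes, the lists and the tests were chosen with earlier results of these data known. P-values judge differences and correlations against the spread between these piglets. Alternatives were no level filter, a 50% filter, median centring, quantile normalization, the replicate block, array weights, an intensity trend with robust prior, gene means over probe sets, and leaving out each array. The covariate from dim probe sets and the contrasts and list correlations were added after the data were seen.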

Additional observations from a re-analysis of the deposited data

Results flagged for a closer look

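In 2 of 22 sets of 9 retinas (11 probe sets in 2 diets), 1 retina stood apart from the rest of its diet by more than Dixon's 95% critical value, and chance alone gives about 1 in 20. VIM in sialyllactose replicate 1 was at 8.97, where the other 8 retinas of that diet lay between 8.27 and 8.61. APOE-1 in sialyllactose replicate 2 was at 5.38, where the others lay between 3.92 and 4.65. In both cases the retina lay on the control side of its diet, and the differences without it were -0.32 for VIM and -0.45 for APOE.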

How the results depend on the processing

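The count of probe sets past an adjusted p of 0.05 was 0 over all tested probe sets and 0 of the glial ones under every alternative run, the replicate block included (0), and the brightest probe sets of the 5 genes kept a lower mean with sialyllactose in all of them. The replicate block changed no call. Deviations of arrays with the same replicate number had r from -0.113 to 0.164 over 9 numbers, 3 of them over 0.1. Arrays of different numbers were not compared, so this cannot show whether equal numbers share anything more. Taken as the mean of its probe sets, GFAP differed by -0.01, GLUL by -0.06 and APOE by -0.09, in place of -0.41, -0.11 and -0.34. GFAP-4 turned to 0.07 with the mean of dim probe sets as a covariate and ran from -0.08 to 0.05 without single arrays. The number of within-gene pairs passing was 1, and 0 without the 2 farthest arrays, and from 0 to 2 without single arrays. That of gene pairs was 0, and from 0 to 1 without single arrays. Correlations that turned were weak throughout. With diet means removed, GFAP-1 with GFAP-3 was 0.24, GLUL-1 with GLUL-3 0.05, the APOE pair 0.12 and VIM with GLUL -0.04. Without the 2 farthest arrays, GFAP-2 with GFAP-4 was -0.22, GFAP-3 with GFAP-4 0.07, GLUL-1 with GLUL-3 0.18 and CD9 with APOE -0.0019. Without single arrays GFAP-1 with GFAP-3 ran from -0.13 to 0.06, GFAP-2 with GFAP-4 from -0.27 to 0.23, GFAP-3 with GFAP-4 from -0.20 to 0.04, GLUL-1 with GLUL-3 from -0.20 to 0.07, the APOE pair from -0.26 to 0.00028, and VIM with APOE from -0.14 to 0.11. The causes were not tested. Dim probe sets limit what can be read of GFAP and APOE, since all but 1 probe set of each lay under a mean of 2.5.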
